A study of Mus musculus with 12 samples.

Results

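The line of mouse female germline stem cells (FGSCs) in which *Stella* had been knocked out (KO, 3 libraries) was compared directly with the line that overexpressed it (Over, 3 libraries). These 6 of the 12 RNA-seq libraries hold the extremes of *Stella* dose, and they were chosen by their labels alone. FGSCs are cells taken from mouse ovary with an antibody to the germ cell protein MVH, and they can be kept dividing in culture. All 12 libraries came from C57BL/6 FGSCs past passage 20, grown on inactivated STO fibroblast feeders with LIF, EGF, bFGF and GDNF. The KO line was expanded from a single cell after lentiviral delivery of Cas9 guides, so it is 1 clone. The Over line received the *Stella* coding sequence in a lentiviral vector with puromycin selection. The other 6 libraries came from the control of each line, KO-con (3 libraries) and Over-con (3 libraries). Over-con carried the empty lentiviral vector, while for KO-con the labels say only that it is the knockout control. KO and Over therefore differ in *Stella* and also in clonal origin, vector and selection. The level in both controls is given beside each leading gene for that reason.

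*Stella*, listed in the count table as Dppa3, encodes a small nuclear and cytoplasmic protein of germ cells, oocytes and early embryos. It is known for shielding maternal DNA from demethylation after fertilization and for keeping the maintenance methylation factor UHRF1 away from chromatin. Loss of the maternal protein stops embryos early in cleavage. The gene spans chr6:122576428-122580290 of the mm9 genome and is read from the plus strand. The guides used against it are shown because they mark the part of the gene that was targeted in the KO line. The capitals mark the PAM, the motif that Cas9 needs beside its target.
sgRNA-1: tgcggttccgtagactgcgcCGG
sgRNA-2: aagggtccgcactttgttgtCGG
Each had 1 exact match in the mm9 genome. The site of sgRNA-1 was chr6:122578671-122578693 on the minus strand and that of sgRNA-2 was chr6:122578764-122578786 on the plus strand. Both lie inside the same coding exon, which runs from 122578595 to 122578827.

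The KO libraries held 8433576, 11482760 and 11266090 counts, and the Over libraries 10626501, 12866545 and 9068437. The control libraries held 5611846 to 11352217. Levels are given in CPM, the counts of a transcript scaled to 1000000 per library, after TMM scaling over all 12 libraries, and a log2 fold change is KO minus Over unless stated. The adjusted p-values in the text come from edgeR's quasi-likelihood test with Benjamini-Hochberg adjustment, made over every transcript of the fit. The labels do not say whether the 3 libraries of a group came from separate cultures, so the p-values measure the spread between these libraries, which may be technical.

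The libraries were checked against markers of the labelled cell type and of others. Of the germ cell genes, Ddx4 (the gene of MVH) had 0 counts in all 12 libraries, while Dazl and Pou5f1 had 1 count each. Each of these has 2 transcripts in the table, and genes of that kind can lose shared reads: Gapdh, also with 2, had 23 counts in all. Their zeros therefore do not tell whether the genes were silent. Germ cell genes with a single transcript gave different answers, since Ifitm3, a membrane protein found in early germ cells, had 667 to 1711 counts a library. Over the 12 libraries Sycp3 had 191 counts, Prdm1 had 104, Bcl6b had 2 and Stra8, which opens meiosis, had 1. These counts do not tell which cells made the RNA. Mast cell and matrix genes were abundant: Cpa3, a protease stored in mast cell granules, had 90155 counts over the 12 libraries and Col1a2, a collagen chain, 68484. Other mast cell genes with a single transcript were mixed. The protease gene Ctsg had 20804 counts and Hdc, which makes histamine, had 323, while Tpsb2 had 8, Mcpt4 had 3 and Fcer1a and Tpsab1 had 0. Of the 10 granulosa cell markers, 3 had 0 counts in every library, among them Foxl2 and Fshr. Amh, of the same list, had 105 counts over the 12 libraries. The summed level of these markers was 30.3 to 32.5 CPM in KO, 24.9 to 29.6 in Over, 26.1 to 31.4 in KO-con and 25.7 to 33.3 in Over-con. In bulk RNA, a smaller number of cells of a type and less RNA per cell cannot be told apart.

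*Stella* RNA followed the labels at the Over end and could not separate KO from the controls. It had 347, 371 and 285 counts in the Over libraries, or 32.1, 28.4 and 30.5 CPM, and 0 in each of the other 9. All 3 Over libraries stood above all others, and no difference among KO and both controls was detectable at this depth. Against a floor of 3 counts per library, Over was at least 103.6-fold higher than KO (adjusted p = 9.32e-09), at least 96.5-fold higher than KO-con and at least 80.8-fold higher than Over-con. The guides cut inside an exon and need not remove the transcript, so a count of 0 in KO does not itself show the edit.

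Between KO and Over, 205 of 9553 transcripts tested (2.15%) passed an adjusted p under 0.05 with an absolute log2 fold change over 1, and these are called DEGs. Of them, 63 (0.659% of those tested) were higher in KO and 142 (1.49%) were higher in Over. Without the fold threshold 1026 transcripts (10.7%) passed, split into 475 (4.97%) higher in KO and 551 (5.77%) higher in Over. The KO and Over libraries did not overlap for 204 of the 205 DEGs, beside 29.8% of all transcripts tested. The same libraries chose the DEGs, so this describes them and is no further support. DEGs were mostly weakly expressed, with a median level over all libraries of 3.47 CPM beside 22.4 CPM for all transcripts tested, and 63 of them reached 10 CPM in KO or Over. The median absolute log2 fold change was 1.47 for DEGs higher in KO and 1.51 for those higher in Over, and 58 DEGs (15 higher in KO, 43 higher in Over) passed 2.

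**Figure D1:**
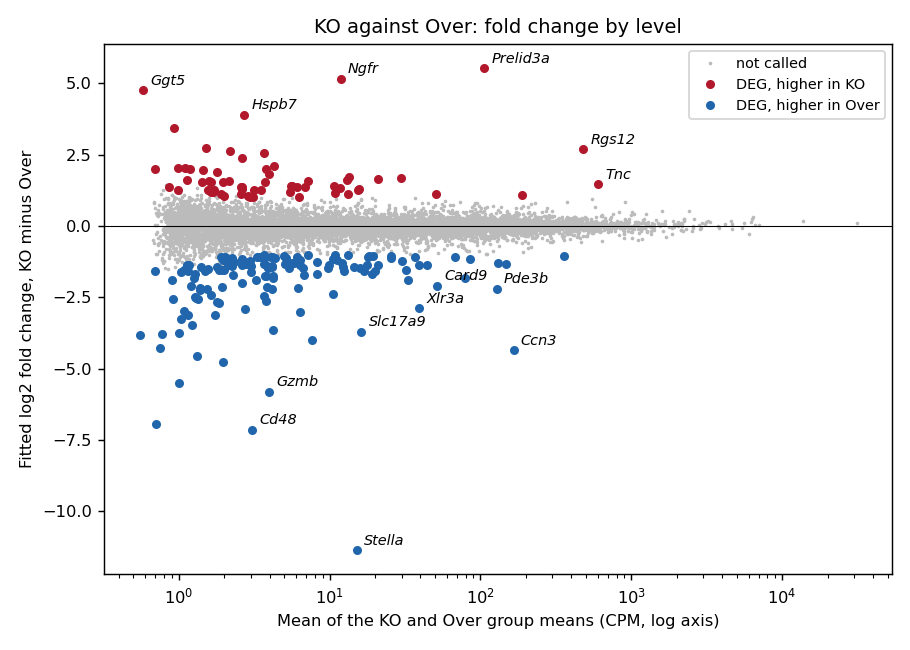
Fitted log2 fold change (KO minus Over) of each tested transcript against the mean of the KO and Over group means in CPM on a log axis. Red points are the 63 DEGs higher in KO, blue points the 142 higher in Over and grey points the transcripts not called. Stella lies lowest, and Prelid3a, Rgs12, Tnc and Ccn3 combine a large change with a level over 100 CPM.

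The genes with the lowest adjusted p among those higher in KO encode a lipid-transfer protein, signalling regulators and matrix or stress proteins. Prelid3a, of the PRELI family that moves phospholipids between mitochondrial membranes, reached 204, 218 and 200.1 CPM in KO and 3.89, 5.05 and 4.28 CPM in Over. Its log2 fold change was 5.54 (SE 0.099, adjusted p = 1.31e-12), the largest among the DEGs higher in KO. The controls differed as well, with 25.9, 24.0 and 26.9 CPM in KO-con and 2.87, 3.17 and 5.05 CPM in Over-con. The 3 KO libraries stood above all 9 others, KO-con came next, and Over-con and Over overlapped.

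Rgs12, a regulator of G protein signalling, measured 839, 873 and 791 CPM in KO and 128, 131 and 127 CPM in Over, a log2 fold change of 2.70 (SE 0.063, adjusted p = 1.21e-11). KO-con held 336, 328 and 362 CPM and Over-con 70.1, 67.8 and 63.7 CPM, so the 4 groups did not overlap. Both groups of the knockout arm lay above both groups of the overexpression arm. This is 1 of 2 transcripts listed for the gene.

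Tnc, which encodes the matrix glycoprotein tenascin C, was abundant in every group. Its level was 828, 895 and 952 CPM in KO and 329, 325 and 309.5 CPM in Over (log2 fold change 1.47, SE 0.065, adjusted p = 1.39e-08). The controls overlapped between these extremes, at 418, 492 and 387 CPM in KO-con and 505, 425 and 432 CPM in Over-con. Tnc thus stood out in KO above all other libraries and was lowest in Over.

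Ngfr, the p75 neurotrophin receptor, was near the detection limit everywhere but in KO. KO had 21.0, 28.5 and 19.8 CPM, against 1.11, 0.613 and 0.107 CPM in Over, 1.14, 0.805 and 0.969 in KO-con and 1.02, 0.704 and 0.970 in Over-con. The log2 fold change was 5.17 (SE 0.32, adjusted p = 4.5e-07), and the 9 libraries outside KO overlapped. Car6, a secreted carbonic anhydrase, had 70.3, 65.0 and 74.1 CPM in KO and 33.3, 33.3 and 29.5 in Over. Its group means were 24.6 ± 1.15 (SD, n = 3) in KO-con and 27.7 ± 3.01 in Over-con. It too stood highest in KO. So did Serpinb9b, a serine protease inhibitor whose close copy Serpinb9g was also a DEG, at 26.4, 35.0 and 34.3 CPM in KO and 10.7, 10.3 and 9.73 in Over, and the predicted gene Gm14137, at 19.3, 20.6 and 21.9 and 6.94, 6.97 and 4.81. For Serpinb9b the KO-con mean was 13.6 ± 2.03 CPM and the Over-con mean 14.2 ± 0.440. For Gm14137 they were 7.24 ± 1.20 and 6.28 ± 0.756 CPM. The KO libraries of all 4 genes stood above the other 9 libraries. For Serpinb9b the Over libraries were also below all 6 control libraries. For Car6 the Over libraries were above all KO-con libraries, and Over-con overlapped with both.

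Ankrd1, a transcription cofactor known as a target of YAP, was lower in each group in turn from KO to Over. It measured 257, 264 and 247 CPM in KO, 209.9, 216 and 201 in KO-con, 192, 163 and 147 in Over-con and 123, 124 and 116 in Over (log2 fold change 1.08, SE 0.059, adjusted p = 1.5e-07). No library of a group overlapped with the next. The adaptor gene She and Cd247, the zeta chain of the T cell receptor complex, split instead by arm. She had 44.1, 47.5 and 44.8 CPM in KO and 38.8, 34.9 and 40.6 in KO-con, but 9.53, 10.0 and 16.7 in Over-con and 12.7, 13.7 and 16.5 in Over. Cd247, of which 1 of 5 transcripts was measured here, had 16.2, 19.9 and 22.9 CPM in KO and 6.66, 6.97 and 5.35 in Over, with KO-con at 10.6 ± 1.44 and Over-con at 3 ± 1.19 CPM.

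**Figure D2:**
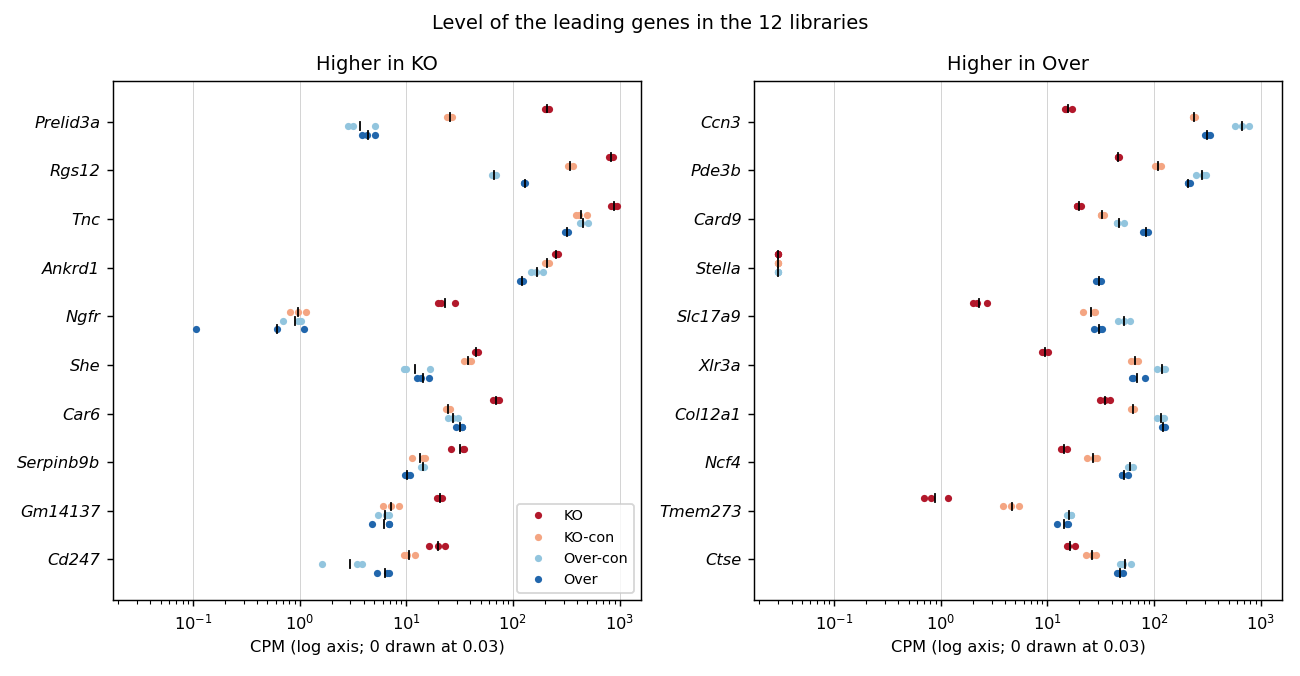
CPM of 10 leading DEGs in each direction (lowest adjusted p), on a log axis, with 1 point for each of the 12 libraries and a black tick at each group mean (values of 0 are drawn at 0.03). Left, genes higher in KO, and right, genes higher in Over. For Ngfr, Car6, Serpinb9b and Gm14137 KO stands above all other libraries, whereas Prelid3a, Rgs12 and Ccn3 also separate KO-con from Over-con.

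Among the DEGs higher in Over, Ccn3 had the lowest adjusted p. Ccn3 (also Nov) encodes a secreted matricellular protein of the CCN family, which binds integrins and tempers cell growth. It measured 14.7, 15.0 and 17.0 CPM in KO and 335, 298 and 315 CPM in Over, a log2 fold change of -4.34 (SE 0.082, adjusted p = 1.31e-12). The level was 243, 229.8 and 232 CPM in KO-con and 769, 568 and 666 CPM in Over-con, so Over-con, not Over, held the highest values. The 4 groups did not overlap.

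The same order, with KO lowest and Over-con highest, held for the group means of Slc17a9, Xlr3a, Pde3b, Ncf4, Tmem273 and Ctse. Slc17a9, the transporter that loads ATP into vesicles, had 2.19, 2.69 and 2.00 CPM in KO and 31.1, 27.4 and 32.2 in Over (log2 fold change -3.71, adjusted p = 9.32e-09). Its levels in the controls were 27.9, 21.7 and 27.6 CPM in KO-con and 52.5, 45.6 and 60.1 in Over-con. Thus KO alone was near 2 CPM, and the Over and KO-con libraries overlapped.

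Xlr3a, of the X-linked lymphocyte-regulated family, had 10.1, 9.37 and 8.90 CPM in KO and 63.2, 62.7 and 81.7 in Over (log2 fold change -2.87, adjusted p = 1.39e-08). KO-con had 66.9, 61.2 and 70.3 CPM and Over-con 107, 127 and 120.3. Its near-identical copy Xlr3b passed in the other direction, at 74.6 ± 2.07 CPM in KO and 54.3 ± 4.17 in Over (log2 fold change 0.46, adjusted p = 0.0018). Reads shared between such copies make the split between them uncertain.

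Pde3b, a phosphodiesterase that breaks down cyclic nucleotides, had 47.1, 45.5 and 45.9 CPM in KO and 207, 207 and 218 in Over (log2 fold change -2.19, adjusted p = 1.36e-10), with 109 ± 7.38 in KO-con and 281 ± 30.7 in Over-con. Ncf4, the p40 subunit of the phagocyte NADPH oxidase, had 13.5, 15.4 and 13.7 CPM in KO and 50.3, 56.4 and 50.0 in Over, with 26.5 ± 2.84 in KO-con and 59.4 ± 3.38 in Over-con. The membrane protein gene Tmem273 had 0.806, 0.694 and 1.18 CPM in KO and 15.2, 12.4 and 15.6 in Over, and 4.63 ± 0.816 and 16.1 ± 0.844 in the controls. Ctse, the aspartic protease cathepsin E, was likewise low in KO. It had 15.2, 15.5 and 18.2 CPM there, 47.4, 51.1 and 44.8 in Over, 26.0 ± 2.72 in KO-con and 52.9 ± 6.48 in Over-con. In all of these KO had the lowest libraries of the 4 groups and KO-con stood between KO and Over.

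Card9 and Col12a1 followed the order KO, KO-con, Over-con, Over in their means. Card9, an adaptor that carries signals from pattern receptors through Bcl10 to NF-kappa B, measured 18.9, 20.7 and 19.2 CPM in KO, 34.1, 31.9 and 31.9 in KO-con, 44.6, 44.7 and 51.7 in Over-con and 78.8, 83.2 and 88.3 in Over (log2 fold change -2.09, SE 0.086, adjusted p = 9.23e-09). No library of a group overlapped with the next. Col12a1, a chain of collagen XII, had 34.9, 38.8 and 31.3 CPM in KO and 118, 126 and 123 in Over (log2 fold change -1.81, adjusted p = 2.1e-08), with KO-con at 63.5, 60.6 and 64.3 and Over-con at 107, 121 and 124. Over-con and Over overlapped for Col12a1.

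Apart from Prelid3a, the largest fold changes came from genes with few counts in 1 of the 2 lines. For these the counts say more than the fitted values. Cd48, a surface ligand of leukocytes, had 0, 0 and 1 counts in the KO libraries and 70, 80 and 53 in Over, for 1 of its 2 transcripts, a ratio of 191 with a 95% counting interval of 33.9 to 7574. Gzmb, the cytotoxic protease granzyme B, had 2, 0 and 2 counts in KO and 93, 111 and 58 in Over, a ratio of 61.6 (23.8 to 228). In KO both genes were absent or nearly so. The controls differed in the same direction for each, with mean levels of 2.92 and 8.69 CPM for Cd48 and 1.87 and 10.6 for Gzmb in KO-con and Over-con. The noncoding Gm10451 had 1, 0 and 0 counts in KO and 24, 19 and 21 in Over, a ratio of 60.2 (10.4 to 2413). Its controls held 8, 7 and 7 counts in KO-con and 23, 11 and 33 in Over-con. These intervals, and the floors used for *Stella*, cover counting error only.

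In the other direction, Ggt5, a gamma-glutamyltransferase, had 10, 12 and 13 counts in KO and 1, 0 and 0 in Over for 1 of 3 transcripts, a ratio of 37.2 (6.26 to 1512). Il24, a cytokine of the IL-10 family, had 13, 22 and 20 and 1, 4 and 0, a ratio of 11.7 (4.72 to 37.5). Hspb7, a small heat shock protein of muscle, had 39, 34 and 87 counts in KO and 4, 4 and 3 in Over (log2 fold change 3.90, adjusted p = 0.000163). All 3 were low outside KO. The means in KO-con and Over-con were 0.332 and 0.127 CPM for Ggt5, 0.428 and 0.465 for Il24, and 0.490 and 0.862 for Hspb7.

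How far the arms differed where *Stella* RNA was at 0 counts on both sides was read from KO-con against Over-con, a comparison that shares no library with KO against Over. It gave about as many DEGs, 201 of 9321 transcripts tested (2.16%), 78 (0.837%) higher in KO-con and 123 (1.32%) higher in Over-con. Without Over-con replicate 3, those higher in KO-con numbered 124. Without the fold threshold 1516 (16.3%) passed there, 753 (8.08%) higher in KO-con and 763 (8.19%) higher in Over-con, and the control groups did not overlap for 32.1% of those tested. Of the 201 DEGs, 57 were also DEGs of KO against Over in the same direction, which is 27.8% of the one list and 28.4% of the other. They comprised 7 higher in the knockout arm and 50 higher in the overexpression arm. Of the 178 DEGs of KO against Over that could be tested between the controls, 140 (78.7%) had the same sign there, beside 55.4% of the 9174 transcripts tested in both. Rgs12, She, Cd247, Ctse, Pde3b and Ncf4 belong to the shared genes, with log2 fold changes between the controls of 2.36, 1.63, 1.87, -1.03, -1.36 and -1.16.

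Only 4 DEGs were called in opposite directions in both comparisons, and they are named although the rule for named genes did not pick them. Shisa3, Jaml, Rhag and Drc1 were all lower in KO than in Over but higher in KO-con than in Over-con. Rhag, a Rhesus-associated membrane glycoprotein of red cells, had 5, 5 and 9 counts in KO, 82, 73 and 61 in KO-con, 7, 7 and 8 in Over-con and 24, 19 and 21 in Over. Jaml, a junctional adhesion molecule, averaged 6.55 ± 1.17 CPM in KO, 24.6 ± 1.03 in KO-con, 8.92 ± 1.64 in Over-con and 14.5 ± 1.85 in Over. In both genes KO-con held the highest libraries.

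**Figure D3:**
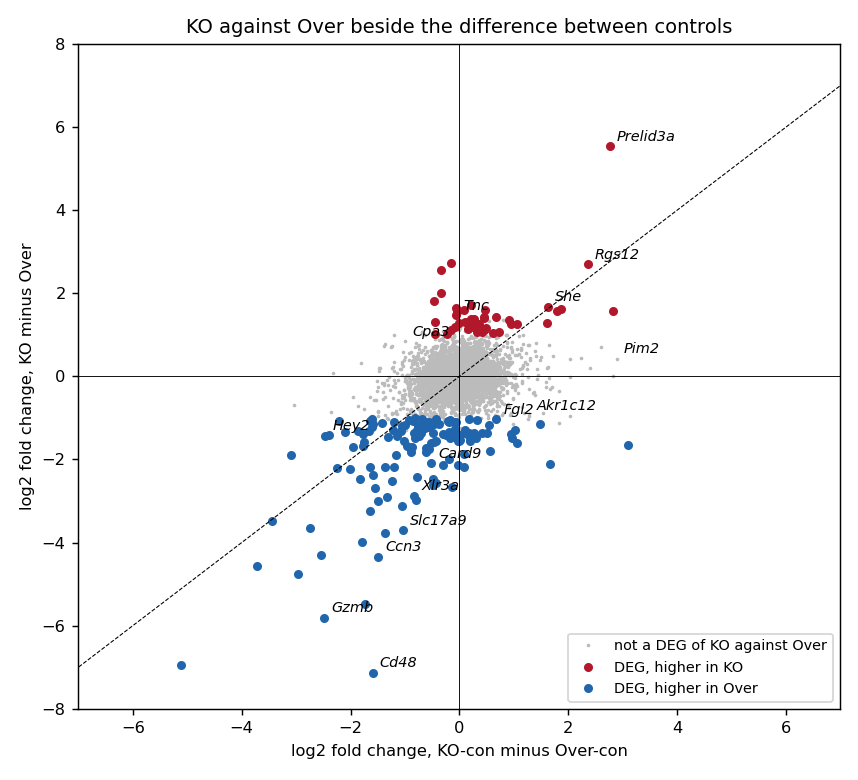
Log2 fold change of KO minus Over (vertical) against that of KO-con minus Over-con (horizontal) for the 9174 transcripts tested in both, with DEGs of KO against Over in red (higher in KO) and blue (higher in Over). The dashed line marks equal differences. Rgs12 and She lie near it, Tnc and Card9 lie near the vertical axis, and Pim2 and Akr1c12 lie far to the right of it.

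Whether KO and Over differed by more than their controls was tested directly as the difference of the 2 comparisons, with all 12 libraries in 1 fit. This called 188 of 9903 transcripts (1.9%), 79 (0.798%) toward KO and 109 (1.1%) toward Over, the last becoming 171 without Over-con replicate 3. Without the fold threshold it called 856 (8.64%), 408 (4.12%) toward KO and 448 (4.52%) toward Over. Of the 205 DEGs, 71 (34.6%) were among them, 69 in their own direction, though the 2 tests share the KO and Over libraries. Ccn3 differed by -2.83 on the log2 scale beyond its controls (SE 0.14, adjusted p = 7.34e-11), Tnc by 1.54 (adjusted p = 6.35e-08), Card9 by -1.56 (adjusted p = 9.76e-08), Prelid3a by 2.80 (adjusted p = 1.11e-07) and Ngfr by 5.12 (adjusted p = 2.55e-05). For Rgs12 the excess was 0.35 (SE 0.093, adjusted p = 0.024), for She 0.056 (SE 0.21, adjusted p = 0.919) and for Cd247 -0.24 (SE 0.31, adjusted p = 0.721). None of these 3 genes was called with the fold threshold, and each separated the controls as well as KO and Over.

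Several of the strongest calls of that test were genes that the direct comparison shows as nearly equal or only mildly different. Pim2, a kinase induced by cytokine signalling, had 40, 46.1 and 56.1 CPM in KO and 37.3, 33.9 and 34.5 in Over, but 207, 156 and 193 in KO-con and 22.3, 26.2 and 27.1 in Over-con. KO-con was far above the other groups. The direct log2 fold change was 0.43 (adjusted p = 0.0292), a call lost without KO replicate 2 (0.46), KO replicate 3 (0.29) or Over replicate 1, 2 or 3 (0.47, 0.40 and 0.42), while the difference from the controls was -2.45 (adjusted p = 1.77e-08). Sspo, which encodes the secreted glycoprotein SCO-spondin, had 151, 154 and 143 CPM in KO and 145, 146 and 131 in Over, with 65.3, 65.3 and 70.8 in KO-con and 153, 131 and 161 in Over-con. Here KO-con alone was low, and KO and Over did not pass the direct test (log2 fold change 0.085, adjusted p = 0.471).

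The aldo-keto reductases Akr1c12 and Akr1c13, close copies on chromosome 13 that may share reads, were also highest in KO-con. Akr1c13 averaged 964 ± 67.8 CPM in KO, 1403 ± 78.2 in KO-con, 428 ± 10.1 in Over-con and 689 ± 5.09 in Over. Akr1c12 averaged 35.8 ± 3.04, 98.3 ± 6.85, 40.7 ± 1.80 and 68.8 ± 3.78 CPM in that order, so that KO lay below Over (log2 fold change -0.94) although KO-con lay above Over-con (1.28). Fgl2, a secreted fibrinogen-like protein, did the same, with 251, 201 and 254 CPM in KO and 500.5, 476 and 461 in Over, but 779.8, 732 and 737 in KO-con and 460.4, 455 and 501 in Over-con. Tcam1, an adhesion molecule first described in testis, ran the other way, with 156 ± 9.90 CPM in KO, 49.4 ± 4.53 in KO-con, 101 ± 17.7 in Over-con and 104 ± 5.87 in Over.

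The log2 fold change between KO and Over can be written as the sum of 3 steps, from Over to Over-con, from Over-con to KO-con and from KO-con to KO. For the 203 DEGs in the fit of all 12 libraries, the largest step in the direction of the DEG was KO against KO-con for 112, KO-con against Over-con for 69 and Over-con against Over for 22. Signed to the direction of the DEG, these 3 steps had medians of 0.93, 0.52 and 0.07 in that order. KO against KO-con passed an adjusted p under 0.05 in the DEG's direction for 106 DEGs, KO-con against Over-con for 82 and Over-con against Over for 10. Steps were uneven between directions, since the median of the step between the controls was 0.26 for DEGs higher in KO and 0.71 for those higher in Over. The medians for Over-con against Over were 0.19 and 0.048. Because the steps add up to the difference that chose the DEGs, these values describe the DEGs and test nothing.

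The mean levels of 62 DEGs ran in the order KO, KO-con, Over-con, Over, 19 of them falling and 43 rising toward Over. Both controls lay between KO and Over for 88 of the 203 DEGs in the fit of all 12 libraries, beside 15.5% of all transcripts tested. DEGs were chosen for a wide gap between KO and Over, which favors this layout, so the comparison tests nothing. The 10 DEGs whose step between Over-con and Over passed in the DEG's direction were *Stella*, Card9, Tnc, Ankrd1, Itih5, Shisa3, Sptb, Jaml, Abca17 and Lama1. Other DEGs passed at that step against their own direction. Among them, Over-con minus Over was -0.94 for Rgs12, 0.77 for Xlr3a, 0.82 for Slc17a9 and 0.41 for Pde3b. Lama1, a laminin chain, was close to absent outside Over. It had 13, 13 and 9 counts in Over, 0, 2 and 0 in KO, 0, 0 and 0 in KO-con and 1, 0 and 0 in Over-con. Abca17, a lipid transporter family member, had 22, 25 and 21 counts in Over and 3, 4 and 0 in KO, with 1, 3 and 4 in KO-con and 7, 2 and 3 in Over-con. Those not picked by the rule for named genes were named after their values were seen.

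**Figure D4:**
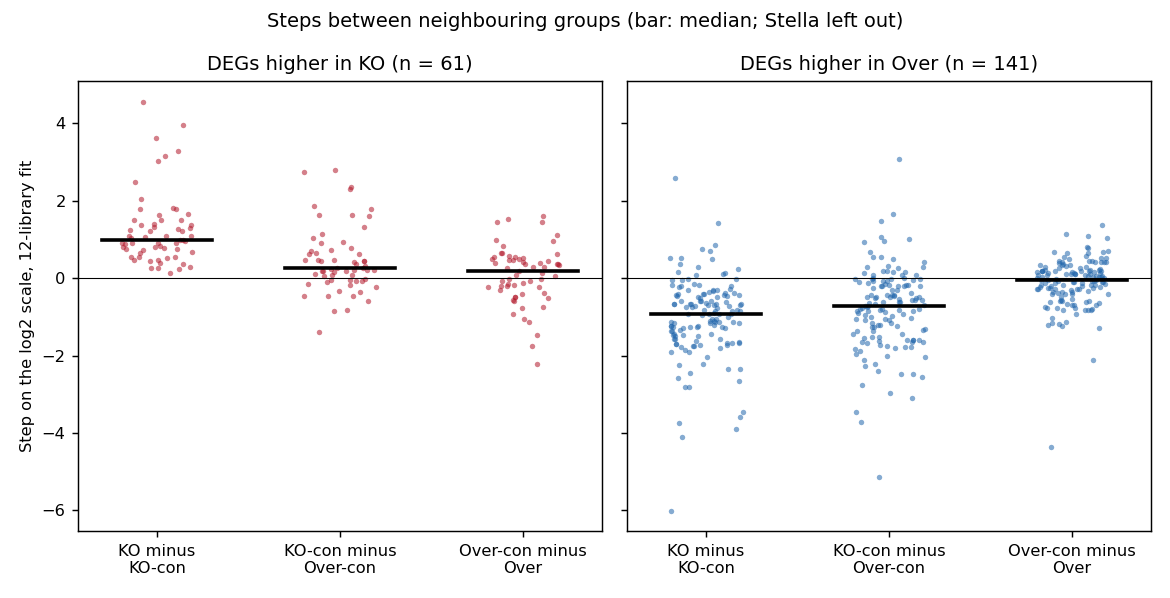
Steps between neighbouring groups on the log2 scale for DEGs higher in KO (left, 61 DEGs) and higher in Over (right, 141 DEGs, Stella left out), with 1 point per DEG and a bar at the median. The step from KO-con to KO is the largest in median in both panels, and the step between Over-con and Over is the smallest, at 0.19 for DEGs higher in KO and close to 0 for those higher in Over.

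Gene lists were read by how many of their tested members passed an adjusted p under 0.05 in each direction, beside 4.97% (higher in KO) and 5.77% (higher in Over) of all transcripts tested. The median log2 fold change of all transcripts tested was 0.0017. In several lists the most abundant member did not pass. Log2 fold changes were -0.20 for Mcm2, -0.16 for Notch2, -0.066 for Ddx58 and -0.071 for B2m. For Bhlhe40, Fcgr1, Ptgs1 and Ccng1 they were 0.052, 0.15, -0.057 and 0.26. For Anxa2, Atrx and Eif4ebp1 they were -0.047, 0.0056 and -0.086. NF-kappa B is a family of transcription factors held in the cytoplasm by inhibitors until receptors release it. Of 11 tested transcripts of NF-kappa B genes, 7 were higher in Over and 0 in KO, with a median of -0.41, beside -0.16 between the controls. Among them were the adaptors Card9 and Bcl10, the inhibitor Nfkbia, its relative Bcl3, the subunit Rel and the apoptosis inhibitor Birc3. Nfkbia averaged 70.9 ± 10.1 CPM in KO, 115 ± 4.59 in KO-con, 129.7 ± 8.92 in Over-con and 99.0 ± 11.7 in Over, and Birc3 88.7 ± 6.82, 116 ± 2.63, 132 ± 10.7 and 118 ± 0.945. Both had their lowest mean in KO. The mean of Over was below both controls for Nfkbia and between them for Birc3. Nfkb1, the most abundant member, had a log2 fold change of -0.11 (adjusted p = 0.299).

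The immediate early genes, switched on within minutes of growth factor or stress signals, had 6 of 19 transcripts higher in Over and 1 higher in KO, with a median of -0.26, beside 0.05 between the controls. Egr1 had 49.5, 77.5 and 46.0 CPM in KO and 91.0, 122 and 96.5 in Over (log2 fold change -0.84, adjusted p = 0.00556), with means of 79.7 ± 8.71 in KO-con and 144 ± 18.6 in Over-con. Junb, Jun, Atf3, Fosl2 and the mRNA-decay factor Zfp36 also passed, with log2 fold changes of -0.50, -0.27, -0.37, -0.25 and -0.73. Klf4, a transcription factor used in reprogramming, passed the other way, with 109.8, 119 and 133 CPM in KO and 73.6, 74.2 and 59.3 in Over (log2 fold change 0.80, adjusted p = 0.000138) and means of 89.1 ± 1.95 and 81.5 ± 9.32 in KO-con and Over-con.

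JAK-STAT signalling carries cytokine signals from receptors to STAT transcription factors, which induce their own inhibitors. Of 26 tested transcripts, 6 were higher in KO and 1 in Over, with a median of 0.06, beside 0.37 between the controls. The 6 were the cytokines Il13 and Il4, the receptor chain Csf2ra, the inhibitor Cish and the kinases Pim1 and Pim2. Il13 had 7.03, 9.19 and 13.6 CPM in KO and 3.52, 4.13 and 3.85 in Over (log2 fold change 1.38, adjusted p = 0.00205), with 4.75 ± 0.528 in KO-con and 4.15 ± 0.399 in Over-con. Cish averaged 56.7 ± 1.07 CPM in KO, 99.8 ± 1.85 in KO-con, 45.5 ± 4.22 in Over-con and 40.7 ± 2.23 in Over, and Pim1 136 ± 2.92, 246 ± 15.1, 104 ± 16.5 and 109 ± 2.84. Both were highest in KO-con, like Pim2. Socs3, another inhibitor, was lower in KO, at 153 ± 24.4 CPM beside 289.8 ± 13.2 in KO-con, 257 ± 23.2 in Over-con and 262 ± 15.5 in Over.

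The mast cell proteases moved in both directions. Cpa3 measured 1158, 1138 and 1214 CPM in KO and 636, 649 and 661 in Over (log2 fold change 0.85, adjusted p = 1.04e-06), and 425, 363 and 415 in KO-con and 806, 861 and 749 in Over-con. KO was thus highest and KO-con lowest, and the change beyond the controls was 1.86 (SE 0.099, adjusted p = 2.53e-10). Ctsg, cathepsin G, had the same layout, with means of 256 ± 17.6 CPM in KO, 114 ± 9.99 in KO-con, 159.9 ± 8.65 in Over-con and 159 ± 9.93 in Over. Cma1, a chymase, was low, with 23, 38 and 60 counts in KO and 5, 8 and 7 in Over. Gzmb, listed with these proteases, was the 1 member higher in Over. The summed level of the list's 15 genes, 1 of them at 0 in every library, was 1401 to 1502 CPM in KO and 808 to 832 in Over, and 474 to 548 in KO-con and 932 to 1028 in Over-con. Mast cell receptors and mediator enzymes overlapped between KO and Over, with 494 to 519 CPM in KO and 509 to 518 in Over, while KO-con was lower at 437 to 457 and Over-con higher at 531 to 577. They had 1 of 10 transcripts higher in KO (Ptgs2) and 2 higher in Over (Il1rl1 and Slc18a2). The part of changed cell composition in these values was not tested.

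Most cell cycle genes differed by small amounts. Of 24 DNA replication transcripts, 5 were higher in Over (Cdt1, Pole, Pold1, Mcm3 and Mcm4) and 0 in KO, with a median of -0.17, but the controls differed in the same direction with a median of -0.28. Cdt1, which licenses origins, averaged 30.4 ± 2.89 CPM in KO, 26.0 ± 3.51 in KO-con, 29.5 ± 3.06 in Over-con and 44.9 ± 2.54 in Over (log2 fold change -0.56, adjusted p = 0.00195). Of 23 mitosis transcripts, 4 were higher in Over (Cdc20, Aurkb, Ncaph and Mki67) and 1 in KO, Mad1l1, for 1 of its 4 transcripts. Mki67, the proliferation marker Ki-67, averaged 164 ± 17.5 CPM in KO, 112 ± 8.55 in KO-con, 166 ± 24.5 in Over-con and 206 ± 4.03 in Over. Its log2 fold change was -0.33 (adjusted p = 0.0127), a call lost without Over replicate 1, 2 or 3 (-0.34, -0.33 and -0.31).

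Of 16 G1/S regulators, 3 were higher in KO and 1 in Over. Rb1, which restrains entry into S phase, averaged 151 ± 17.6 CPM in KO, 103 ± 3.38 in KO-con, 84.5 ± 10.4 in Over-con and 92.1 ± 3.55 in Over (log2 fold change 0.71, adjusted p = 0.000104). Ccnd1 and Cdk6, a cyclin and kinase pair that opposes Rb1, had log2 fold changes of 0.34 (adjusted p = 0.00448) and 0.25 (adjusted p = 0.00951). Ccnd2 had -0.19 (adjusted p = 0.0478), a call lost without KO replicate 2 (-0.17) or Over replicate 1, 2 or 3 (-0.19, -0.18 and -0.19). Of 21 p53 target transcripts, 3 were higher in KO (Plk2, Perp and Tnfrsf10b) and 0 in Over.

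Many germ cell, oocyte and methylation genes could not be tested between the extremes of *Stella* dose. Tested were 5 of 28 germ cell and self-renewal genes, 6 of 26 meiosis and oocyte genes and 11 of 20 DNA methylation genes. Of their transcripts 20%, 0% and 9.1% passed, beside 10.7% of all transcripts tested, so the few calls do not set these lists apart. Of 5 tested germ cell and self-renewal transcripts, 1 was higher in KO, Uchl1, a ubiquitin hydrolase of spermatogonia and neurons, with 19, 36 and 29 counts in KO and 19, 14 and 7 in Over (log2 fold change 1.14, adjusted p = 0.0433). That call was lost without KO replicate 2 (1.01), KO replicate 3 (1.15), Over replicate 2 (1.05) or Over replicate 3 (0.93). None of 6 meiosis and oocyte transcripts passed in the edgeR fit, and Meikin, the most abundant, had a log2 fold change of -0.25 (adjusted p = 0.0982). Of 11 DNA methylation transcripts, 1 was higher in Over, Trim28, a corepressor that keeps imprints methylated, at 394 ± 35.9 CPM in KO, 469 ± 17.4 in KO-con, 431 ± 21.7 in Over-con and 497 ± 9.66 in Over.

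Of 16 imprinted transcripts, 2 were higher in KO, 0 were higher in Over and 14 did not pass. A positive log2 fold change was found for 13, beside 4799 of all 9553 transcripts tested. The median of the list was 0.13, beside 0.01 between the controls. Igf2r, a maternally expressed receptor that clears IGF2, had 838, 854 and 901 CPM in KO and 653, 670.0 and 613 in Over (log2 fold change 0.42, adjusted p = 0.000553), with 735 ± 32.6 in KO-con and 757 ± 19 in Over-con. Plagl1, a paternally expressed zinc finger gene measured by 1 of 4 transcripts, had 33, 51 and 34 counts in KO and 22, 16 and 12 in Over, a log2 fold change of 1.31 whose call was lost without KO replicate 2 (1.18) or Over replicate 2 (1.16). Of 13 chromatin architecture transcripts, 2 were higher in Over, the Polycomb genes Eed and Ezh1, with log2 fold changes of -0.24 and -0.30.

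Fibroblast and matrix genes, which feeders also express, split between directions, with 3 of 23 transcripts higher in KO (Timp2, Thy1 and Myl9) and 5 higher in Over (Col3a1, Loxl1, Mmp2, Dcn and Pdgfra). Their summed level was 3223 to 4008 CPM in KO and 3441 to 3587 in Over, so the groups overlapped. Timp2, a metalloprotease inhibitor, averaged 1438 ± 93.4 CPM in KO and 1066 ± 16.2 in Over, and Col3a1, a collagen III chain, 138 ± 30.3 and 205 ± 16.7, with 123 ± 8.88 in KO-con and 245 ± 20.7 in Over-con. The call of Pdgfra (log2 fold change -1.54, 1 of 5 transcripts) was lost without KO replicate 2 (-1.50) or Over replicate 2 (-1.22). Myl9, a contractile light chain, had 28, 47 and 66 counts in KO and 7, 11 and 10 in Over.

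Blood cell regulators included 1 of 17 hematopoietic transcription factors higher in KO and 4 higher in Over. The abundant ones were Runx3 and Fli1, with log2 fold changes of -0.37 and -0.34. The 3 others averaged under 5 CPM in each group, each came from 1 of several transcripts, and their calls were lost when single libraries were left out. Tal1 (1.36) lost its call when any of the 6 libraries was left out (1.35, 1.33 and 1.40 without KO replicate 1, 2 or 3, and 1.21, 1.62 and 1.30 without Over replicate 1, 2 or 3). Gfi1 (-1.14) lost it without KO replicate 1 (-1.02), KO replicate 2 (-1.08) or Over replicate 1, 2 or 3 (-0.93, -1.26 and -1.21). Nfe2 (-1.39) lost it without KO replicate 2 (-1.05), KO replicate 3 (-1.39), Over replicate 1 (-1.19) or Over replicate 2 (-1.30). The macrophage markers gave 0 calls among 5 transcripts and the granulocyte markers 0 among 2 in the edgeR fit, and no lymphocyte marker passed the filter on low counts. Of the 3 erythroid and megakaryocyte transcripts, the erythropoietin receptor Epor was higher in Over, with a log2 fold change of -0.73, and of the 3 granulosa cell transcripts none passed.

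Of 26 interferon-stimulated transcripts, Ifit1 was higher in KO and Rsad2 higher in Over. Rsad2, the antiviral enzyme viperin, had 17, 13 and 14 counts in KO and 81, 69 and 57 in Over (log2 fold change -2.14, adjusted p = 0.000188), and averaged 5.88 ± 0.787 CPM in KO-con and 6.01 ± 1.86 in Over-con, so KO alone was low. The class I genes H2-D1 and H2-Q4, which share sequence with their relatives, made up the 2 of 11 antigen presentation transcripts that passed, both higher in Over. Among chemokines and receptors, 1 of 12 transcripts was higher in Over, the neutrophil chemokine receptor Cxcr2, with 166, 157 and 167 CPM in KO, 270.4, 269 and 265 in Over, 187 ± 14.3 in KO-con and 321 ± 24.9 in Over-con, and 1 was higher in KO, the monocyte chemokine Ccl7. The difference between the controls was of the same size for Cxcr2 (-0.77, beside -0.72 between KO and Over).

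Of 12 Notch transcripts, 3 were higher in Over (Notch1, Lfng and Hey2) and 1 in KO (Maml1). Hey2, a Notch target, had 7.83, 5.46 and 10.3 CPM in KO and 22.4, 20.6 and 20.3 in Over, but the gap between the controls was wider, with 6.72, 6.89 and 4.24 in KO-con and 33.3, 33.1 and 34.1 in Over-con. Of 4 CCN transcripts, Ccn3 and Ccn5 were higher in Over, and Ccn5 had 5, 14 and 14 counts in KO and 64, 80 and 70 in Over, with 2.97 ± 0.462 CPM in KO-con and 4.20 ± 0.186 in Over-con. Of 11 S100 and annexin transcripts, S100a10 was higher in Over and Anxa3 higher in KO, and of 16 PI3K-AKT transcripts 1 passed, Pik3r5, higher in Over.

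**Figure D5:**
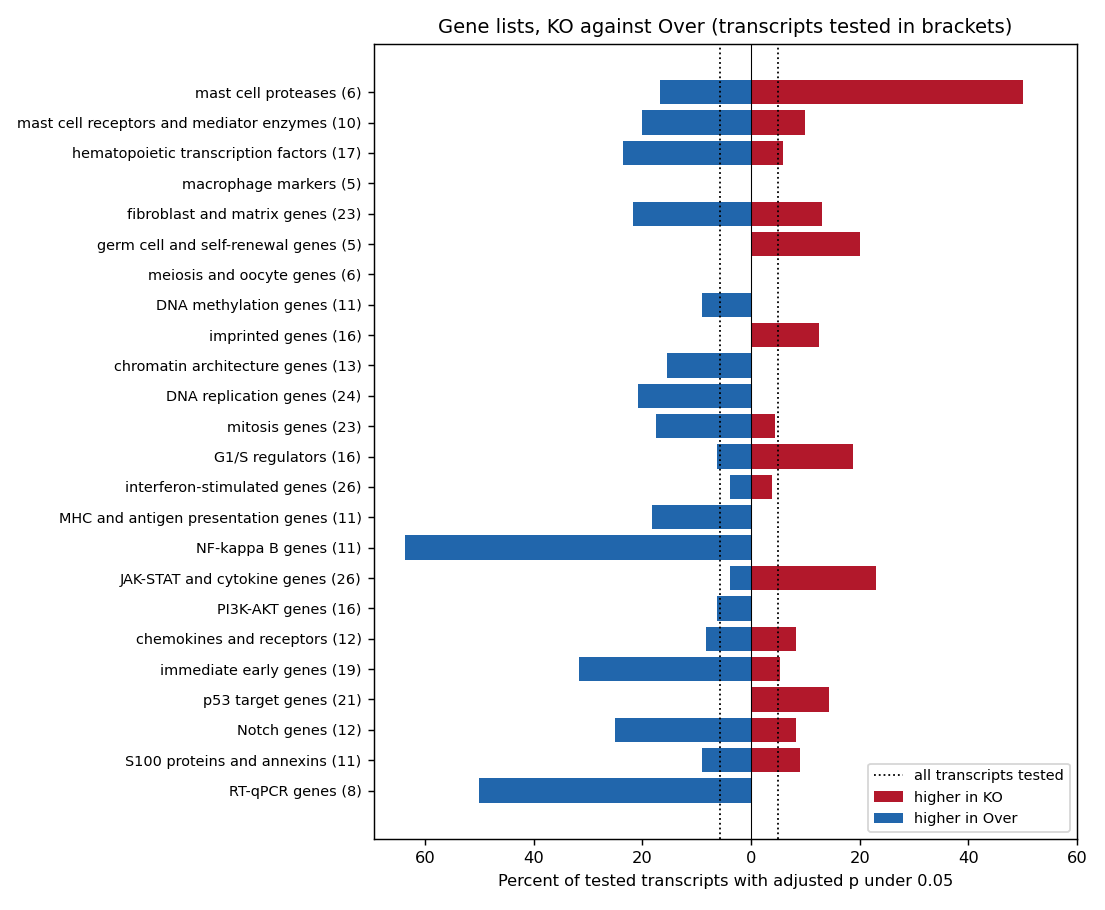
Percent of the tested transcripts of each of 24 gene lists with at least 5 tested transcripts that passed an adjusted p under 0.05, to the right higher in KO and to the left higher in Over, with dotted lines at the share of all transcripts tested. NF-kappa B genes (7 of 11) and immediate early genes (6 of 19) reach farthest toward Over apart from the 8 RT-qPCR genes, and mast cell proteases (3 of 6) and JAK-STAT genes (6 of 26) farthest toward KO.

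A list of genes followed up by RT-qPCR was chosen on these same samples, so it is not independent evidence of a direction. Of its 8 tested transcripts, 4 were higher in Over and 0 in KO. Besides Card9 these were St8sia4, Itih5 and Tox. St8sia4, an enzyme that adds polysialic acid, had 36.4, 28.7 and 27.8 CPM in KO, 49.5, 40.9 and 51.6 in KO-con, 30.4, 29.0 and 28.4 in Over-con and 53.7, 51.0 and 61.2 in Over for 1 of its 2 transcripts. The second transcript stayed under 1 CPM and was not tested. Itih5, which binds hyaluronan in the matrix, had 11.2, 11.4 and 13.3 CPM in KO and 23.4, 24.9 and 25.4 in Over, with means of 19.3 ± 1.04 and 15.7 ± 0.746 in KO-con and Over-con. Tox, a nuclear HMG box factor, averaged 15.9 ± 2.63 CPM in KO, 24.2 ± 3.92 in KO-con, 14.4 ± 1.61 in Over-con and 23.9 ± 1.50 in Over, and its call (log2 fold change -0.59) was lost without KO replicate 2 (-0.53) or Over replicate 2 (-0.53). For both St8sia4 and Tox the KO libraries overlapped with Over-con, and the Over libraries with KO-con.

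The remaining RT-qPCR genes were Hhip, Sema7a, Meikin and Prdm9. Hhip, which traps hedgehog ligands, had 32.7, 25.2 and 28.3 CPM in KO and 19.2, 20.7 and 24.7 in Over (log2 fold change 0.41, adjusted p = 0.0522), whereas KO-con had 51.7, 52.8 and 47.4 and Over-con 10.6, 13.6 and 13.4. Sema7a, a membrane-bound semaphorin, had means of 10.9 ± 0.836 CPM in KO and 9.30 ± 0.621 in Over, with 6.64 ± 1.01 in KO-con and 15.6 ± 1.24 in Over-con. Both genes separated the controls more widely than KO and Over. Prdm9, which marks recombination sites in meiosis, had a log2 fold change of -0.085 (adjusted p = 0.702).

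By position, the 197 DEGs with a place on mm9 included 20 (10.2%) with another DEG within 100000 bases, beside 4.08% of all transcripts tested, and in each case the neighbour differed in the same direction. All of these pairs were higher in Over, and their members were picked after their values were seen. On chromosome 1 they included Cd48, its receptor gene Cd244a and the lectin gene Itln1, with log2 fold changes of -7.13, -1.70 and -3.47, and Slamf9, Cfap45 and Dusp23, with -3.75, -2.51 and -1.30. Several pairs are copies of one gene, so their reads may be shared, among them Hspa1a and Hspa1b, Scd3 and Scd4, and Kir3dl1 and Kir3dl2. The metalloprotease genes Mmp3 and Mmp10 formed a further pair. Medians of whole chromosomes lay between -0.048 (chromosome 16) and 0.075 (X), and the X chromosome median between the controls was -0.034. Xist, the RNA that coats the inactive X, was at 0.921, 0.781 and 1.36 CPM in KO and 0.833, 0.995 and 0.107 in Over for 1 of its 2 transcripts, and the Y-linked genes Sry, Ddx3y, Kdm5d, Uty, Eif2s3y, Usp9y, Zfy1 and Zfy2 had 0 counts in every library.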

How the data were processed

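RNA-seq was made with the KAPA Stranded mRNA-Seq kit from 12 libraries, 3 each of KO, Over, KO-con and Over-con, and grouped by their labels. The authors deposited raw read counts per RefSeq transcript, which their notes connect to HISAT2 and the mm9 genome. The treatment of strand and of reads shared between transcripts or gene copies is not given in the sources used here. Genes with several transcripts can therefore be undercounted, and overlapping genes cannot be told apart. Counts on genes with 1 transcript made up 96.4% of the total, and 41181 of 41388 transcripts (99.5%) carried a symbol.

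KO against Over and KO-con against Over-con were each fitted with edgeR 4.0.16 (R 4.3.3, filterByExpr, TMM, quasi-likelihood test, two-sided, Benjamini-Hochberg adjustment). Their difference and the steps between groups were fitted over all 12 libraries. The thresholds for DEGs were 0.05 for the adjusted p and 1 for the absolute log2 fold change. Exact permutation of 3 against 3 libraries cannot go below p = 0.1, so single genes were tested in the fit across all transcripts. Tested on simulated data, the fit of KO against Over recovered 200 of 200 transcripts changed 4-fold with 3 false calls, among 9555 tested. The simulation gave every transcript and group the same spread and changed only transcripts above a minimum mean count. It therefore does not show how the fit does with smaller changes, fewer counts or unequal spread. Counting intervals were exact at 95%. DESeq2 1.42.0, limma 3.58.1 and other settings served as alternatives.

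Genes were named by rule: *Stella*, in each direction the 10 DEGs that led by adjusted p without overlap of KO and Over, the 5 per direction with the largest fold change, the 5 per direction with the lowest adjusted p in the difference, up to 4 DEGs and the most abundant member of each gene list, the RT-qPCR genes, and Xist with the Y-linked genes. Other genes described within a list are members that passed. The most abundant member is not described for every list. A gene picked by this rule is not reported here. The comparison, gene lists and tests were chosen with earlier results of these data known. Guide sequences came from the study's supplementary material and were matched to mm9.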

Additional observations from a re-analysis of the deposited data

Results flagged for a closer look

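A test of the difference between 2 comparisons, KO against Over and KO-con against Over-con, passed for 188 transcripts, and each gene below was named in the text and passed it. The values are log2 differences, KO minus Over less KO-con minus Over-con, from edgeR's quasi-likelihood test over all 12 libraries.

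Toward KO, the genes of matrix, muscle and adhesion proteins were Tnc (1.54), Myl9 (2.98), Hspb7 (4.73), Tcam1 (1.62) and Sspo (1.24). Signalling genes were Ngfr (5.12), Il24 (3.50), Il13 (1.17) and Sema7a (1.46). Proteases, inhibitors and enzymes were Cpa3 (1.86), Serpinb9b (1.70) and Car6 (1.29). The remaining ones were Prelid3a (2.80), Plagl1 (1.77), Gm14137 (1.51) and the Notch target Hey2 (1.04), which was nevertheless lower in KO than in Over.

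Toward Over, secreted and matrix proteins were Ccn3 (-2.83), Ccn5 (-2.12), Itih5 (-1.35), Fgl2 (-1.69) and Hhip (-1.61). Immune genes were Card9 (-1.56), Cd48 (-5.50), Gzmb (-3.31), Rsad2 (-2.10), Tox (-1.34) and Xlr3a (-2.03). Kinases, receptors, transporters and enzymes were Pim2 (-2.45), Pdgfra (-1.54), Slc17a9 (-2.66), St8sia4 (-1.53), Akr1c12 (-2.21) and Akr1c13 (-1.23). The others were Tmem273 (-2.19), Nfe2 (-2.32) and Gm10451 (-3.72). Cd48, Gzmb, Gm10451, Myl9, Hspb7 and Il24 had few counts in at least 1 group, so their fitted values depend on the prior count. KO-con as much as KO can set such a difference, as for Pim2 and Sspo, where KO-con lay farthest from the other groups. For Hhip both controls lay outside KO and Over, with steps of -0.82 (KO minus KO-con) and -0.79 (Over-con minus Over).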

How the results depend on the processing

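The total counts of DEGs moved by more than 1.5 times under 3 settings. With at least 10 counts required in every library, KO against Over gave 118 and the overlap with the controls 29. With no fold threshold, KO against Over gave 1026, KO-con against Over-con 1516, their difference 856 and the overlap 334. With glmTreat, which tests against the fold threshold itself, KO against Over gave 53, the controls 48 and the overlap 15. Of the KO against Over calls, 30.7% were higher in KO, and 46.3% with no fold threshold. DESeq2 gave 183, 136 and 146 calls for KO against Over, the controls and the difference, and limma-voom 209, 208 and 193. By direction, counts also moved by more than 1.5 times without Over-con replicate 3 (124 against 78 higher in KO-con, and 171 against 109 toward Over in the difference), with DESeq2 (81 against 123 higher in Over-con) and with at least 10 counts in every library (50 against 78 higher in KO-con).

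Leaving out 1 library at a time gave 164 to 238 DEGs for KO against Over, 171 to 263 for the controls, 145 to 262 for the difference and 52 to 61 shared. The bound for *Stella* ran from 98.2 to 113.9. The labels give the groups the same replicate numbers, and same-numbered KO and Over libraries correlated at -0.127, 0.111 and -0.157 in their deviations, so the numbers were not taken as pairs. With the replicate number as a block, KO against Over gave 191 DEGs, the controls 205, the difference 175 and the overlap 57. Over all named genes and settings, 1228 values kept their side of the threshold, 75 lost it and 20 gained it. No value changed sign for a gene that had passed, and 7 values changed sign among 5 genes that had not (Anxa2, Atrx, B2m, Eif4ebp1 and Klf6). DEGs were weakly expressed, so few counts limit the precision of most fold changes. KO is 1 clone, and the effect of *Stella* and that of the line cannot be told apart.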
